A study of Bos taurus with 6 samples.

Results

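Expression of 10 transcription factor and cofactor genes of gonad and granulosa cell identity was compared between granulosa cells treated with LY294002 and cells treated with DMSO. The genes were SOX4, SOX9, SOX11, GATA4, GATA6, WT1, LHX9, RUNX1, RUNX2 and ZFPM2, out of 18010 genes named on the array. They were chosen by name, as factors that specify or maintain the somatic cells of the gonad, with the forkhead factor FOXL2 left out. Earlier results of these data were known when they were chosen. Each of them was measured by 1 transcript cluster, called a probe here, that carries its symbol alone. None of these 10 probes had the same values as another probe.

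The samples were primary bovine granulosa cells, the somatic cells that surround the oocyte, with 3 samples treated with 50 μM LY294002 and 3 samples given DMSO, the vehicle. LY294002 blocks PI3K, the kinase that activates AKT, and it is known to act on some other kinases as well. In both groups the cells came from follicles of 2 to 6 mm in abattoir ovaries, were frozen and thawed, and grew in medium with FSH at 20 ng/mL and the IGF1 analog R3 IGF1 at 50 ng/mL. On day 2 the inhibitor, with DMSO as its vehicle control, was given in an exchange of most of the medium for medium without FSH or IGF1. Both factors were returned by another exchange after 2 h, and RNA was taken on day 4. The medium also contained insulin, transferrin and androstenedione, and the age of the cows is not given in the sources used here. Biological replicates are described in the methods as cells from ovaries of different collection days, but no array is tied to a day, so the p-values measure only the spread between these samples.

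These factors act together in the somatic gonad. GATA4 and GATA6 are zinc finger proteins that bind GATA motifs in promoters of gonadal genes, and ZFPM2, also called FOG2, binds them as a cofactor that can activate or repress. WT1 and LHX9 act in the early genital ridge. SOX9 drives Sertoli cell development in the testis and is kept low by FOXL2 in the mouse ovary, while SOX4 and SOX11 are closely related SOX proteins. RUNX1 helps to maintain the identity of fetal granulosa cells in the mouse. RUNX2 is induced in rodent and human granulosa cells around ovulation, and both RUNX proteins bind DNA with the partner CBFB.

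Signals are log2 values after RMA, the authors' processing, which makes the distributions of the arrays alike. The log2 difference of a gene is its mean signal in LY294002 minus that in DMSO, the log2 fold change. The 6 arrays had medians of 4.98 to 5.01. A typical probe had an SD of 0.10 in LY294002 and 0.11 in DMSO. The granulosa label fitted several of its markers, since FSHR had signals of 7.67 to 8.07, the inhibin subunit gene INHA of 10.17 to 10.35 and the gap junction gene GJA1 of 11.18 to 11.42. Of the theca markers, 4 of 7 were dimmer than the median probe, among them the androgen-producing enzyme gene CYP17A1 at 2.75 to 3.15, and 3 were brighter. These were the insulin-like hormone gene INSL3, at 6.94 to 7.37 in LY294002 and 7.96 to 8.38 in DMSO, NR2F2, at 6.90 to 6.96 in LY294002 and 7.05 to 7.19 in DMSO, and PTCH1, at 6.61 to 6.76 in LY294002 and 6.23 to 6.42 in DMSO. Dimmer than the median probe were 9 of 11 endothelial markers (PECAM1 at 2.70 to 2.99), 8 of 10 leukocyte markers (PTPRC at 3.19 to 3.77) and 7 of 8 oocyte markers (GDF9 at 3.07 to 3.40). Stromal matrix genes were bright, with 11.85 to 11.97 for LUM. DCN had 9.81 to 9.97 in LY294002 and 10.14 to 10.27 in DMSO. Of 8 fibroblast markers, 2 rose (COL1A2 and PDGFRA) and 1 fell (PDGFRB). Their mean log2 signal per array was 8.74 to 8.79 in LY294002 and 8.79 to 8.82 in DMSO. Of 10 granulosa markers, 1 rose (NR5A2) and 4 fell (FOXL2, AMH, CYP19A1 and AMHR2). The 10 had a mean of 8.02 to 8.10 in LY294002 and 8.34 to 8.43 in DMSO. Their log2 differences ran from -1.97 (CYP19A1) to 1.04 (NR5A2), with a median of -0.21, 2 above 0 and 8 below. Of the 10 granulosa markers, 1 was dimmer than the median probe, HSD17B1, at 4.57 to 4.74 in LY294002 and 4.87 to 5.01 in DMSO. Of 6 measured luteal markers, 2 rose and 0 fell, with a mean of 8.40 to 8.51 in LY294002 and 8.23 to 8.33 in DMSO. Another listed luteal marker, STAR, had no probe that carries its symbol alone and was left out. The surface epithelium gene UPK1B was also bright, at 9.74 to 9.89 in LY294002 and 10.06 to 10.13 in DMSO. The 9 markers of that type had a mean of 5.24 to 5.29 in LY294002 and 5.40 to 5.45 in DMSO. The 7 theca markers had one of 4.97 to 5.09 in LY294002 and 5.17 to 5.32 in DMSO. The part of other cells in the results was not tested, and in such bulk samples a change in the share of a cell type and a change of RNA per cell cannot be told apart.

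RUNX2 rose with LY294002 and was the only one of the 10 genes to pass both thresholds, which were 0.05 for the adjusted p and 1.4 for the fold change. RUNX1, SOX4 and GATA6 were higher with an adjusted p under 0.05 but stayed under 1.4-fold, and ZFPM2 was lower on the same terms. SOX9, SOX11 and GATA4 had higher values on every LY294002 array but missed the adjusted p, and WT1 and LHX9 overlapped between the groups. The p-values came from limma's moderated test on each of the 24415 probes, with Benjamini-Hochberg adjustment across the whole array.

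In counts, 1 of 10 genes rose and 0 fell, where 5.96% of all probes passed both thresholds, 2.58% as higher and 3.38% as lower. At an adjusted p under 0.05 with any fold change, 4 of 10 were higher and 1 was lower, where 13.3% of all probes passed, 6.10% as higher and 7.21% as lower. The values of the groups did not overlap for 8 of 10 genes, 7 of them higher and 1 lower with LY294002, where 32.7% of all probes lay apart, 16.5% as higher and 16.1% as lower. Bright probes pass more often than dim probes. Among the 12209 probes brighter than the median, which include 7 of the 10 genes, 4.35% rose. In the same probes 10.6% were higher and 12.3% lower at an adjusted p under 0.05, and 24.6% lay apart as higher and 26.3% as lower. The median log2 difference was 0.27 over the 10 genes and 0.02 over all probes. Because the genes were chosen with earlier results known, the shares of all probes are given as background and not as a test.

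**Figure D1:**
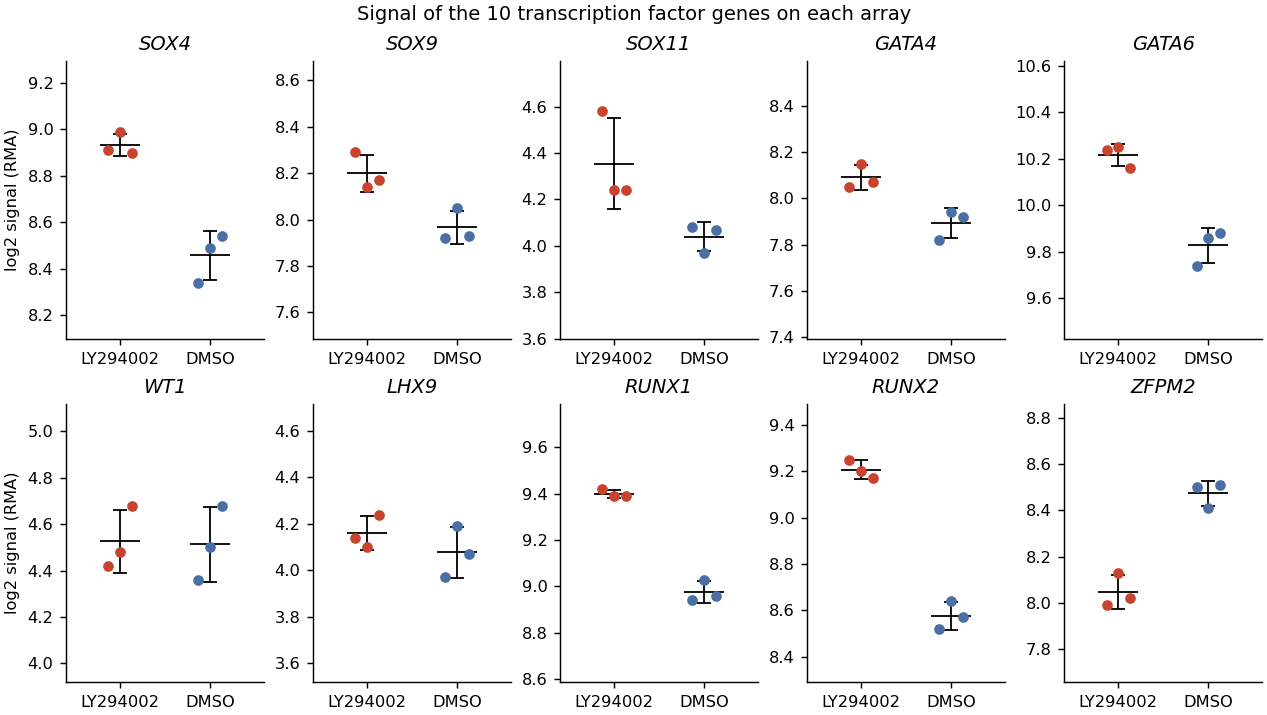
Log2 signal (RMA) of each of the 10 genes on the 3 LY294002 arrays (red) and the 3 DMSO arrays (blue), with the mean and SD in black; every panel spans the same height in log2 units, so the gaps can be compared but the levels of different genes cannot. The groups lie apart for 8 genes, with ZFPM2 the only one of these lower in LY294002, and overlap for WT1 and LHX9.

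Among the RUNX genes, RUNX2 had log2 signals of 9.25, 9.20 and 9.17 in LY294002 and of 8.52, 8.64 and 8.57 in DMSO. The lowest LY294002 array stood 0.53 above the highest DMSO array. The mean was 9.21 ± 0.04 in LY294002 and 8.58 ± 0.06 in DMSO (SD, n = 3 each), a 1.55-fold rise with a log2 difference of 0.63 (SE 0.06, 95% interval 0.48 to 0.78, adjusted p = 0.00212). RUNX2 has rank 414 of all probes by p-value.

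RUNX1 had log2 signals of 9.42, 9.39 and 9.39 in LY294002 and of 8.94, 9.03 and 8.96 in DMSO. Its replicates were close together in both groups, and a gap of 0.36 separated them. The log2 difference was 0.42 (SE 0.06, 95% interval 0.28 to 0.57, adjusted p = 0.00677). At 1.34-fold it did not reach the fold threshold. The difference between RUNX2 and RUNX1 on each array was larger in LY294002 by 0.21 (SE 0.02). This is 1 of 6 pairs of members that were compared after their values had been seen, with an exact two-sided permutation test over samples. The exact permutation p of the RUNX pair was 0.1, the smallest that 3 arrays against 3 allow, and 0.12 after adjustment over the 6 pairs.

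RUNX proteins need CBFB to bind DNA well and can recruit corepressors of the TLE family. CBFB had signals of 8.96, 8.91 and 8.98 in LY294002 and of 8.89, 8.95 and 8.90 in DMSO, which overlapped (log2 difference 0.04, SE 0.06, adjusted p = 0.755). The TLE corepressor gene TLE3 rose, with 6.48, 6.34 and 6.46 in LY294002 against 5.68, 5.88 and 5.97 in DMSO (log2 difference 0.58, SE 0.09, adjusted p = 0.0106). Of 12 partner genes in the list, TLE3 was the 1 that rose and 0 fell. TLE4, named after its value was seen, was the other with an adjusted p under 0.05, at 0.43 on the log2 scale (adjusted p = 0.0124), under the fold threshold. TLE1 and TLE2, also named after their values were seen, had log2 differences of -0.20 and 0.05 (adjusted p = 0.295 and 0.857). The median log2 difference of the partners was -0.03. RUNX3, the remaining RUNX gene, had a log2 difference of -0.03 (adjusted p = 0.866).

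RUNX2 is best known for genes of bone and mineralized matrix. Of 10 such target genes, 1 rose and 1 fell, and the median log2 difference was -0.03. Of these 10 genes, 8 were dimmer than the median probe, where the array limits what can be seen. SPP1, which encodes the secreted matrix protein osteopontin, had 9.57, 9.56 and 9.61 in LY294002 against 8.99, 9.0 and 9.17 in DMSO (log2 difference 0.53, SE 0.07, adjusted p = 0.00635). PHEX, a gene of phosphate handling in bone, was dim, with 3.15, 3.04 and 3.24 in LY294002 against 3.86, 3.64 and 3.56 in DMSO (log2 difference -0.54, SE 0.10, adjusted p = 0.0174). Its call was lost without LY294002 replicate 1 (adjusted p = 0.0551), LY294002 replicate 2 (0.0629) or DMSO replicate 2 (0.0503), and without DMSO replicate 1 it stayed under 1.4-fold (-0.46). The genes whose profile over the 6 arrays, centred on its mean, was most like that of RUNX2 were AZIN1 (root mean square distance 0.0149 in log2 units) and SLC22A17 (0.0186). Their log2 differences were 0.64 and 0.63, near that of RUNX2. With 6 arrays, a gene with a similar difference and a small spread lies close, and shared regulation was not tested.

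Among the GATA genes, GATA6 had log2 signals of 10.24, 10.25 and 10.16 in LY294002 and of 9.74, 9.86 and 9.88 in DMSO. The groups stood 0.28 apart. The log2 difference was 0.39 (SE 0.07, 95% interval 0.23 to 0.55, adjusted p = 0.0149), which is 1.31-fold. Without LY294002 replicate 1 or replicate 2, its adjusted p was 0.0535 or 0.0597.

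GATA4 had log2 signals of 8.05, 8.15 and 8.07 in LY294002 and of 7.82, 7.94 and 7.92 in DMSO. Every LY294002 array was higher than every DMSO array, by at least 0.11. The log2 difference was 0.20 (SE 0.07, 95% interval 0.04 to 0.36, adjusted p = 0.11), so the interval runs from near 0 to a value short of 1.4-fold. Among the alternative settings, the adjusted p of GATA4 was lowest, at 0.0238, with an intensity trend and robust estimation of the variances together. It was 0.0638 without the dimmest 25% of probes and 0.178 with the replicate number as a block. With each array left out in turn, it ran from 0.16 to 0.267.

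ZFPM2, the cofactor of both GATA proteins, went the other way. It had log2 signals of 7.99, 8.13 and 8.02 in LY294002 and of 8.50, 8.41 and 8.51 in DMSO, a gap of 0.28. The mean was 8.05 ± 0.07 in LY294002 and 8.47 ± 0.06 in DMSO (SD, n = 3 each), and the log2 difference was -0.43 (SE 0.07, 95% interval -0.59 to -0.26, adjusted p = 0.011). This is 1.34-fold lower and did not reach the fold threshold. Relative to ZFPM2, GATA6 was higher in LY294002 by 0.82 (SE 0.07) and GATA4 by 0.62 (SE 0.06), each with an exact two-sided permutation p = 0.1 (adjusted p = 0.12). GATA6 relative to GATA4 was higher by 0.19 (SE 0.03, exact permutation p = 0.1, adjusted p = 0.12). These pairs were also chosen after their values had been seen, and a permutation p of 0.1 is the smallest possible here.

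**Figure D2:**
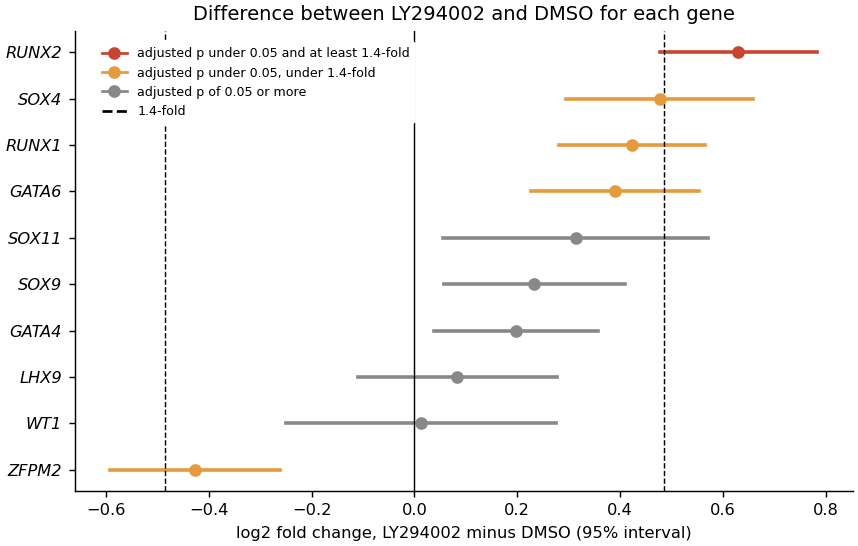
Log2 fold change, LY294002 minus DMSO, of each of the 10 genes with its 95% interval from limma, ordered by size; dashed lines mark 1.4-fold in either direction. Only the estimate of RUNX2 (0.63) lies beyond a dashed line, SOX4 (0.48) lies just inside it, and ZFPM2 (-0.43) is the only estimate below 0.

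Of 9 other GATA, FOG and GATA-type zinc finger genes, 0 rose and 0 fell by limma, with 2 at an unadjusted p under 0.05. GATA3, a factor of trophoblast and T cells, came closest, with 5.11, 5.05 and 4.82 in LY294002 against 5.57, 5.49 and 5.35 in DMSO. Its log2 difference of -0.48 (SE 0.10, adjusted p = 0.0278) was just under the fold threshold. With each array left out in turn, its adjusted p was under 0.05 in 2 of 6 fits and at most 0.085. Those 2 fits, without LY294002 replicate 1 (-0.54) or DMSO replicate 3 (-0.54), also passed the fold threshold. ZFPM1, the other FOG gene, had a log2 difference of 0.19 (adjusted p = 0.39). The median of these genes was -0.05.

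Target genes of GATA4 and GATA6 known from gonadal cells did not move one way. Of 13 measured, with GATA6 itself among them, 1 rose and 2 fell, and the median log2 difference was -0.09. CYP11A1, the enzyme that begins steroid synthesis from cholesterol, rose to 11.34, 11.31 and 11.35 in LY294002, against 10.70, 10.67 and 10.86 in DMSO (log2 difference 0.59, adjusted p = 0.00416). CYP19A1, the aromatase gene, had 5.50, 5.36 and 5.17 in LY294002 against 7.28, 7.31 and 7.34 in DMSO (log2 difference -1.97, adjusted p = 0.000243). AMH, the gene of anti-Müllerian hormone, fell by 0.61 on the log2 scale (adjusted p = 0.00269).

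Among the SOX genes, SOX4 had log2 signals of 8.91, 8.99 and 8.90 in LY294002 and of 8.34, 8.49 and 8.54 in DMSO. The lowest LY294002 array exceeded the highest DMSO array by 0.36. The mean was 8.93 ± 0.05 in LY294002 and 8.46 ± 0.10 in DMSO (SD, n = 3 each), a log2 difference of 0.48 (SE 0.08, 95% interval 0.30 to 0.66, adjusted p = 0.0104). At 1.39-fold SOX4 sat just under the threshold. Without LY294002 replicate 1 or 3, or without DMSO replicate 2 or 3, it passed both thresholds, with log2 differences of 0.49, 0.49, 0.49 and 0.52, and the count of members that rose was then 2 in place of 1.

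SOX9 had log2 signals of 8.29, 8.14 and 8.17 in LY294002 and of 7.92, 8.05 and 7.93 in DMSO. The gap between the groups was 0.09, about the SD within a group (0.08 in LY294002 and 0.07 in DMSO). The log2 difference was 0.23 (SE 0.07, 95% interval 0.06 to 0.41, adjusted p = 0.0888). Among the alternative settings, the adjusted p of SOX9 was lowest, at 0.0152, with an intensity trend and robust estimation together. It was 0.0523 without the dimmest 25% of probes and 0.19 with the replicate number as a block. With each array left out in turn, it ran from 0.105 to 0.216. FOXL2, which opposes SOX9 in the mouse ovary, fell on the same arrays to 7.35, 7.34 and 7.08 in LY294002, against 7.96, 8.06 and 8.01 in DMSO (log2 difference -0.75, adjusted p = 0.00394).

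SOX11 was dim on this array, with log2 signals of 4.58, 4.24 and 4.24 in LY294002 and of 4.08, 3.97 and 4.07 in DMSO. LY294002 replicate 1 stood above the other 2 of its group. The log2 difference was 0.31 (SE 0.11, 95% interval 0.06 to 0.57, adjusted p = 0.114), and without that replicate it was 0.20 (adjusted p = 0.178). SOX4 was higher relative to SOX9 by 0.24 (SE 0.09, exact permutation p = 0.1, adjusted p = 0.12) and relative to SOX11 by 0.16 (SE 0.15, exact permutation p = 0.4, adjusted p = 0.4). Here too, a permutation p of 0.1 is the smallest possible.

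Of the other SOX family, 15 genes were measured, of which 0 rose and 0 fell with a median of 0.06. Of the 15 genes, 11 were dimmer than the median probe. By limma 1 of the 15 had an unadjusted p under 0.05, and 0 an adjusted p under 0.05. SOX13 had the lowest adjusted p, with a log2 difference of 0.40 (SE 0.15, adjusted p = 0.135). SOX5 and SOX6, partners of SOX9 in cartilage, had log2 differences of 0.06 and 0.05 (adjusted p = 0.622 and 0.67). SOX8, like SOX9 a SOXE gene, had one of 0.08 (adjusted p = 0.526).

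Of 13 measured genes that SOX9 activates in cartilage or testis, 0 rose and 2 fell, PTGDS and AMH. AMH was also listed as a granulosa marker and as a target of GATA4 and GATA6 and of WT1. PTGDS, the prostaglandin D synthase of Sertoli cells, had 6.39, 6.48 and 6.27 in LY294002 against 7.12, 7.39 and 7.35 in DMSO (log2 difference -0.91, adjusted p = 0.00268). The median of the list was 0.05, and 7 of its 13 genes were dimmer than the median probe. In the wider list of 13 testis identity genes, which shares PTGDS and AMH with it, 0 rose and 3 fell, the third being the tight junction gene CLDN11 (log2 difference -1.22, adjusted p = 0.000676). DMRT1, a defining testis factor, was dim at 4.07 to 4.34 in LY294002 and 3.96 to 4.42 in DMSO. Of 18 ovarian identity genes, 4 rose (NR5A2, FOXO1 and KITLG among them) and 3 fell (FOXL2, AMHR2 and CYP19A1), with a median of 0.00. The doublecortin gene DCX and TEAD2, known targets of SOX4 and SOX11 in neural tissue, did not pass, with log2 differences of 0.45 (adjusted p = 0.0972) and 0.01 (adjusted p = 0.943).

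**Figure D3:**
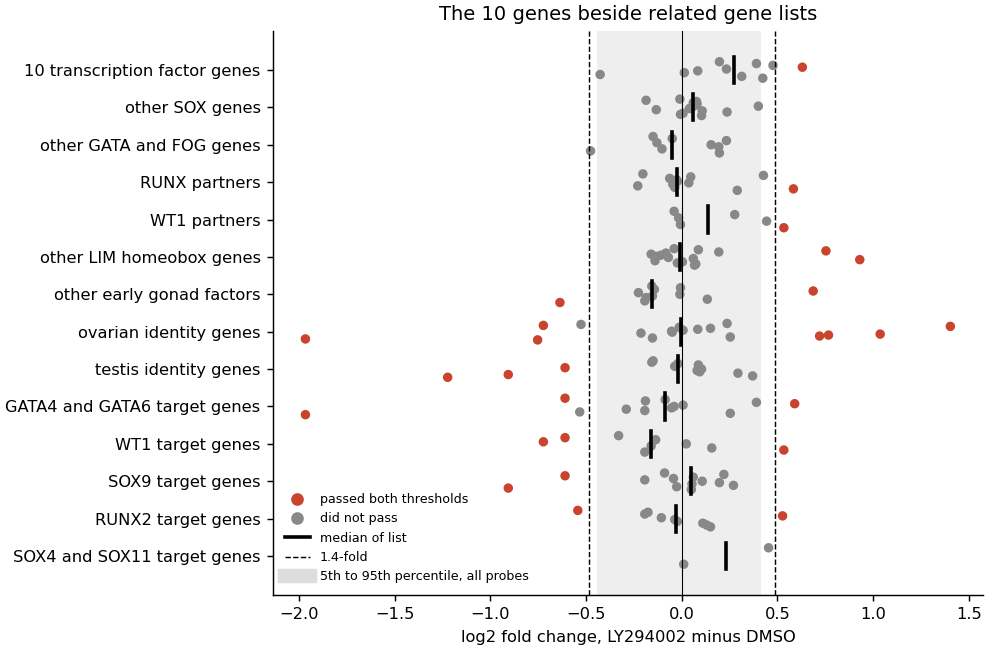
Log2 fold change, LY294002 minus DMSO, of the 10 genes (top) and of the measured members of 13 lists of relatives, partners and targets, with 1 point per gene, red for genes that passed both thresholds, a black bar for the median of each list and grey shading from the 5th to the 95th percentile of all probes (-0.44 to 0.41). The median of the 10 genes lies at 0.27 and that of the WT1 target genes at -0.16. That of the WT1 partners, a list that also holds the target SPRY1, lies at 0.14.

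WT1 and LHX9 had dim probes, with all signals below the array medians, so the array gives little information on them. WT1 had log2 signals of 4.42, 4.48 and 4.68 in LY294002 and of 4.36, 4.50 and 4.68 in DMSO. The groups overlapped almost fully, and the log2 difference was 0.01 (SE 0.11, 95% interval -0.25 to 0.28, adjusted p = 0.957). LHX9 had log2 signals of 4.14, 4.10 and 4.24 in LY294002 and of 3.97, 4.19 and 4.07 in DMSO, with a log2 difference of 0.08 (SE 0.08, 95% interval -0.11 to 0.28, adjusted p = 0.581).

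The list of 6 WT1 partner genes holds partner proteins or regulators and also SPRY1, a target rather than a partner. Of the 6 genes, 1 rose (SPRY1), 0 fell and 3 were higher at an adjusted p under 0.05 with any fold change. No partner or regulator in the list passed both thresholds. SPRY1, a feedback inhibitor of receptor tyrosine kinases and a WT1 target in the kidney, rose to 5.99, 6.22 and 6.20 in LY294002, against 5.57, 5.55 and 5.69 in DMSO (log2 difference 0.53, SE 0.09, adjusted p = 0.0113). BASP1, a corepressor of WT1, and WTAP, a WT1-associated splicing protein, were named after their values were seen. BASP1 had a log2 difference of 0.44 (adjusted p = 0.0064) and WTAP one of 0.28 (adjusted p = 0.0431), both under the fold threshold. Of 9 measured WT1 target genes, 1 rose (SPRY1, which is in both lists) and 2 fell, AMHR2 and AMH. AMHR2, the AMH receptor gene, had a log2 difference of -0.72 (SE 0.08, adjusted p = 0.00319).

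LIM homeobox factors such as LHX9 bind the cofactor LDB1, for which LIM-only proteins compete. Of 16 measured LIM homeobox, LIM-only and LDB genes, 2 rose, 0 fell and the median log2 difference was -0.01. Of the 16 genes, 12 were dimmer than the median probe. Both that rose were LIM-only genes. LMO2 had 7.02, 6.92 and 6.82 in LY294002 against 6.07, 5.91 and 5.99 in DMSO (log2 difference 0.93, SE 0.08, adjusted p = 0.00134). LMO4 had 8.59, 8.68 and 8.67 in LY294002 against 7.90, 7.86 and 7.92 in DMSO (log2 difference 0.75, SE 0.06, adjusted p = 0.00117). LDB1 had a log2 difference of -0.16 (SE 0.06, adjusted p = 0.139).

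Of 11 other measured factors of the early gonad, 1 rose and 1 fell, and the median was -0.15. SIX4, a homeobox transcription factor of the early gonad, had 5.22, 5.07 and 5.22 in LY294002 against 5.88, 5.68 and 5.86 in DMSO (log2 difference -0.64, SE 0.08, adjusted p = 0.00539). PDGFRA, a growth factor receptor gene of gonadal mesenchyme, rose to 9.30, 9.30 and 9.32 in LY294002, against 8.61, 8.63 and 8.62 in DMSO (log2 difference 0.69, SE 0.06, adjusted p = 0.00117). NR5A1, the steroidogenic factor gene that GATA4, WT1 and LHX9 activate in the mouse gonad, had 7.90, 7.83 and 7.78 in LY294002 against 7.95, 8.05 and 8.09 in DMSO. The groups lay apart, but the log2 difference of -0.19 (SE 0.07, adjusted p = 0.127) did not pass.

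**Figure D4:**
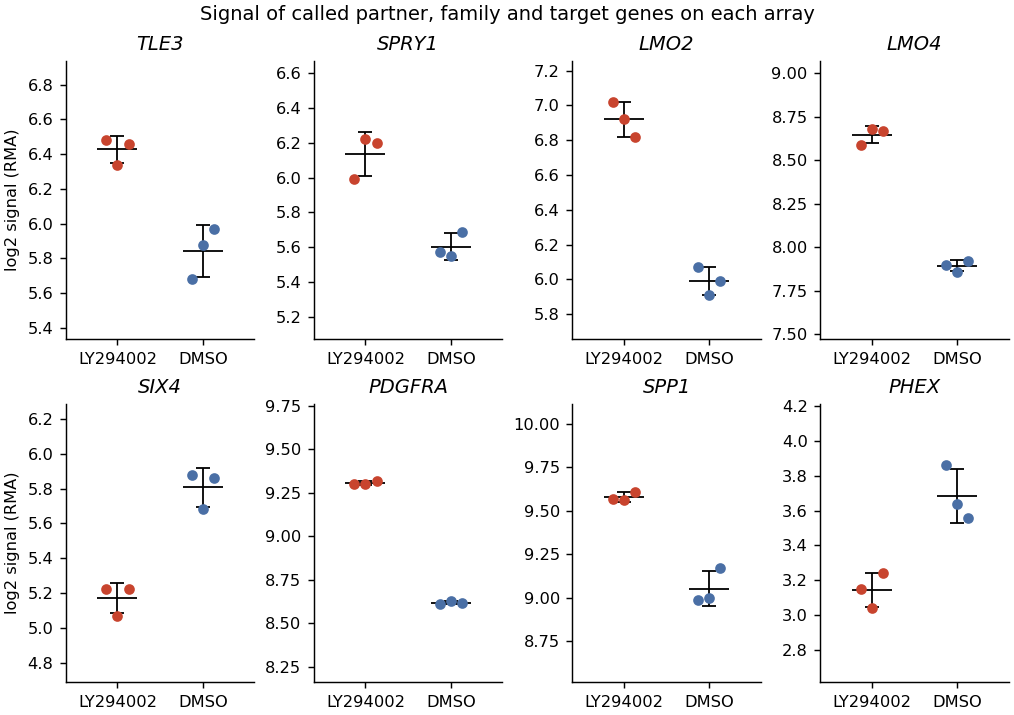
Log2 signal (RMA) of 8 called genes from the lists of partners, relatives, early gonad factors and targets on the 3 LY294002 arrays (red) and the 3 DMSO arrays (blue), with the mean and SD in black and panels of equal height in log2 units. SIX4 and PHEX are lower in LY294002 and the other 6 higher, with no overlap between the groups in any panel.

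The genes next to the members in the genome were looked up in RefSeq's gene table (ARS-UCD2.0), where 8 of the 10 members were placed. Of 16 protein-coding neighbors, 13 were measured, of which 1 rose and 0 fell, where 2.58% of all probes rose and 3.38% fell. The distances between members and neighbors were not measured. The gene that rose was KCNJ2, a potassium channel gene beside SOX9, with 6.12, 5.87 and 6.10 in LY294002 against 4.54, 4.82 and 4.68 in DMSO (log2 difference 1.35, adjusted p = 0.00107). NEK7, beside LHX9, had a log2 difference of 0.45 (adjusted p = 0.0236), under the fold threshold. The neighbors SUPT3H and CLIC5 of RUNX2 both had a log2 difference of -0.06 (adjusted p = 0.602 and 0.848). The neighbors RBBP8 and MIB1 of GATA6 had -0.10 and 0.00 (adjusted p = 0.384 and 0.984).

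**Figure D5:**
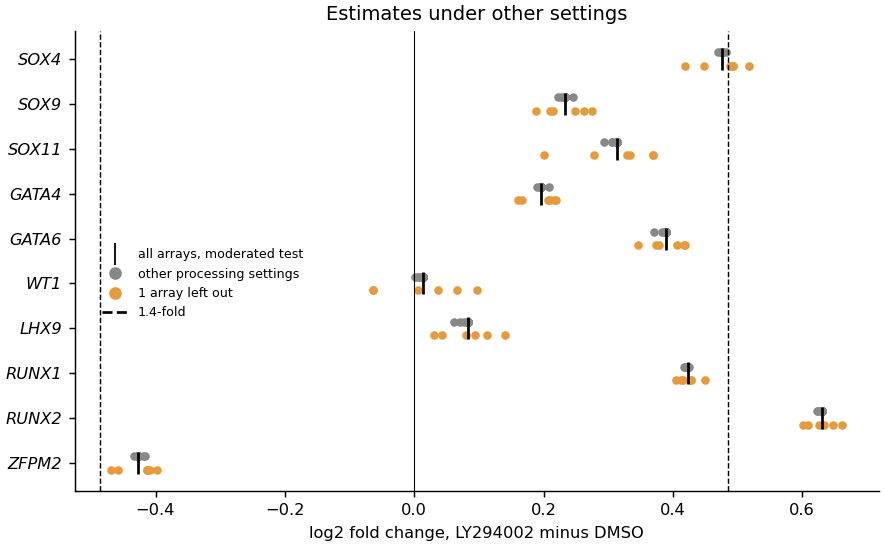
Log2 fold change, LY294002 minus DMSO, of each of the 10 genes with all arrays (black bars), under other processing settings (grey) and with 1 array left out (orange), with dashed lines at 1.4-fold. RUNX2 stays between 0.60 and 0.66, SOX4 crosses the dashed line in some settings with 1 array left out (0.42 to 0.52), and WT1 lies on either side of 0.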

How the data were processed

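RNA of 3 LY294002 and 3 DMSO samples was hybridized by the authors to Bovine Gene 1.0 ST arrays, 1 sample per array, and processed with Transcriptome Analysis Console 4.0. Per the labels, the authors' RMA gave the deposited log2 signals, rounded to 2 decimals. The RMA version and the genome build of the probes are not given in the sources used here. All 24415 probes were tested without a filter. Of these, 18457 have 1 gene symbol in the platform table, 688 several and 5270 none.

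A linear model per probe (lmFit, then eBayes, limma 3.58.1, R 4.3.3) had treatment as its sole term, with Benjamini-Hochberg adjustment across the array. Calls needed both an adjusted p below 0.05 and 1.4-fold, the thresholds of the methods. A gene with several probes was given by its brightest probe.

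The members and lists were chosen with earlier results of these data known. Besides the members, genes are named where they passed in a list (up to 4 by adjusted p), or else had its lowest adjusted p, and as cell type markers or neighbors. Others, such as CBFB, LDB1 and NR5A1, are named for their roles and were chosen after their values were seen. Alternatives were a plain analysis of variance, an intensity trend together with robust estimation, a replicate block, median centring, quantile normalization, probe filters, array weights, other thresholds, averaging the probes of each gene and leaving out each array. The number of arrays limits the precision. No DNA or protein sequence was used here.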

Additional observations from a re-analysis of the deposited data

How the results depend on the processing

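RUNX2 passed both thresholds under all 19 alternatives, with log2 fold changes between 0.60 and 0.66 and adjusted p-values up to 0.0232. Settings that change only a threshold reuse the main estimate, and the looser ones could not lose this call. Averaging probes also left its estimate unchanged, since RUNX2 has 1 probe. With no fold threshold, 1489 probes were higher and 1760 lower, and 4 member genes were higher and 1 was lower, by construction of that setting. With 1 array left out, 1 to 2 member genes rose and 0 fell, SOX4 being the gene added. The log2 fold change of WT1 then ranged from -0.06 to 0.10, and it was below 0 without LY294002 replicate 3 or DMSO replicate 1 (both -0.063). The other 8 members kept their direction in every alternative. Samples of the same number did not deviate together (correlations of their deviations from -0.04 to -0.02), so the numbers were not taken as pairs. With the replicate number as a block, 546 probes rose and 706 fell, RUNX2 had an adjusted p of 0.0232, and GATA6 (0.0642) and ZFPM2 (0.059) exceeded 0.05. The cause was not tested. WT1, LHX9 and SOX11 lie below the array medians, where the array limits what can be seen.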

Other observations

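Of 6 measured marker genes of the corpus luteum, 2 rose, OXT (log2 fold change 0.84, adjusted p = 0.00207) and CYP11A1 (0.59, adjusted p = 0.00416). Another 2 had lower values on every LY294002 array without passing, the dim LH receptor gene LHCGR (-0.53, adjusted p = 0.0552) and the steroid dehydrogenase gene HSD3B1 (-0.19, adjusted p = 0.0757), both chosen after their values were seen. Of 7 theca markers, 0 rose and 1 fell, the insulin-like hormone gene INSL3 (-1.05, adjusted p = 0.00763). The platelet-derived growth factor receptor genes moved in opposite directions on the same arrays, with PDGFRA at 9.30, 9.30 and 9.32 in LY294002 against 8.61, 8.63 and 8.62 in DMSO, and PDGFRB at 6.57, 6.59 and 6.56 in LY294002 against 7.46, 7.56 and 7.63 in DMSO (log2 fold change -0.98, adjusted p = 0.000831). KIT, the receptor of kit ligand, had signals of 7.37 to 7.57 in LY294002 against 7.84 to 8.15 in DMSO (-0.54, adjusted p = 0.0189), while KITLG rose 2.65-fold (adjusted p = 0.000423). The adjusted p of KIT exceeded 0.05 in some alternatives, with a highest value of 0.0697. Of 7 measured Sertoli cell markers, 1 rose, the transferrin gene TF (0.71, adjusted p = 0.0332, highest 0.111 in the alternatives), and 2 fell. Of 11 endothelial markers 1 fell (CLDN5), of 9 surface epithelium markers 1 fell (KRT8), and of 10 leukocyte markers 0 passed. At an adjusted p under 0.05 with any fold change, 3 surface epithelium markers were lower, KRT8, UPK1B and CDH1. The calls of CLDN5 and KRT8 were lost in 8 and 9 of the 19 alternatives. At an unadjusted p under 0.05 with limma, 1 leukocyte marker was lower.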
